A study of Mus musculus with 11 samples.

Results

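Differentiation of a mouse embryonic stem cell line without connexin43 and connexin45 was followed from the stem cell stage to embryoid bodies on 6 of the 11 Illumina MouseWG-6 bead arrays of the study. The 6 arrays were chosen by their labels, as 2 of Cx43/45 del ESC and 4 of Cx43/45 del EB, and the test contrasted the bodies with the stem cells. The other 5 arrays, 2 of Cx43/45 flox ESC and 3 of Cx43/45 flox EB, form the control line. Per the labels, the deleted line is male C57BL/6, lacks exon 3 of both connexin genes, and expresses lacZ from the Cx43 promoter and eGFP from the Cx45 promoter. The control line is male C57BL/6 with no such reporters in its labels. Both lines are described as a single line each, so no value below measures the spread between independent lines. Stem cells were kept with leukemia inhibitory factor on feeder fibroblasts, and each array holds the trypsinized cells of 1 culture well. Bodies were started in hanging drops of 2000 cells in medium without that factor and harvested at day 6, about 300 to an array. The labels call the arrays replicates without naming the cultures behind them, so the p-values rest on a spread between samples that may be technical.

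Connexins form gap junctions, channels through which neighbouring cells exchange ions and small molecules. Connexin43 and connexin45 are the products of Gja1 and Gjc1. When the inhibitory factor is withdrawn and the cells aggregate, embryonic stem cells leave pluripotency, and an outer epithelium of primitive endoderm forms around an epiblast-like core. The series title names that endoderm as the tissue of interest. The probe identifiers were not matched to genes here. Marker genes of pluripotency, endoderm, feeder cells and both connexins were therefore not examined, the labelled cell types have no marker check, and probes are described by identifier, level and group.

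On a bead array, labelled cRNA binds to beads that each carry 1 probe sequence, and the reading is the brightness of those beads in arbitrary units. Across the 6 deleted-line arrays 40.6% to 43.0% of 45281 probes were detected, which means a detection p-value under 0.05 against the array's negative control beads. Array background, the median deposited intensity of probes with a detection p-value near 0.5, was 126 and 121 units on the stem cell arrays and 106 to 111 units on the body arrays. The groups did not overlap, and the difference was -15.0 units. An exact two-sided permutation test over the 15 splits of the arrays gave p = 0.067, its lowest possible value, and 0.20 after Benjamini-Hochberg adjustment over 3 array measures. Detection (42.3% ± 0.86 in bodies, SD, n = 4; 41.6% ± 1.37 in stem cells, SD, n = 2) and mean intensity (459 ± 26.5 and 464 ± 46.1 units) had exact permutation p of 0.53 and 0.80. In bulk samples, fewer cells of a type and less RNA per cell cannot be told apart.

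Between the stages the deleted line changed widely but unevenly in size. Of 23268 probes tested after quantile normalization, 5189 or 22.3% passed an adjusted p of 0.05 (limma), 2440 (10.5%) higher and 2749 (11.8%) lower in bodies. The typical change was modest, with a median log2 change of 0.70 among the higher and -0.68 among the lower probes, and 79.1% of the former and 76.1% of the latter stayed under 2-fold. At 2-fold or more there were 511 higher (2.2%) and 657 lower probes (2.82%). At 4-fold or more there were 23 higher (0.0988%) and 143 lower (0.615%), and 45 fell at least 8-fold (0.193%). Among all probes tested by limma, called or not, the steepest rise was 2.997 on the log2 scale, just under 8-fold, and the steepest fall -6.47. Alternatives put at most 2 rises past 8-fold, except background correction, which put 24 there. Array background was lower on every body array than on either stem cell array. With 15 splits the exact permutation test (adjusted p = 0.20) could not pass 0.05, so it decides nothing about this difference. With background correction 140 probes fell at least 8-fold.

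The control line did not have this lean towards falls at the large end. Its probes at 4-fold or more numbered 279 higher (1.2%) and 217 lower (0.933%), and at 8-fold or more 55 and 38. The contrast between the lines in these counts was not tested as such. In the deleted line lower probes outnumbered higher ones at 4-fold in all 20 alternative analyses, with 126 to 440 against 17 to 203. The highest counts came from background correction, and without it the ranges were 126 to 166 and 17 to 62. The balance at 2-fold was not fixed, since median scaling gave 680 higher and 522 lower probes, and leaving out deleted stem cell replicate 1 gave 827 and 820.

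**Figure D1:**
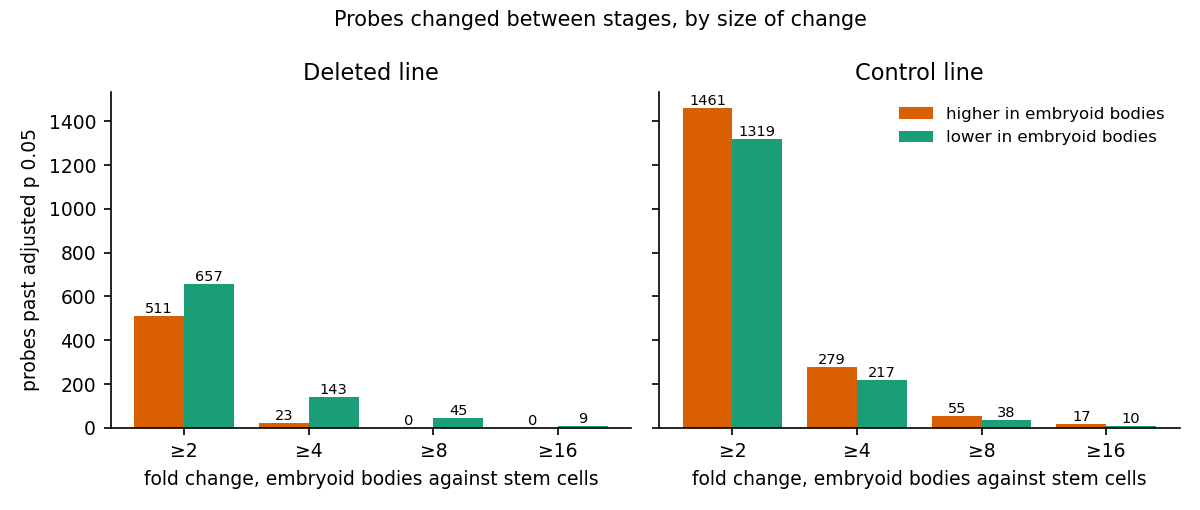
Number of probes past an adjusted p of 0.05 (vertical axis) by minimum fold change between embryoid bodies and stem cells (horizontal axis), higher and lower, in the deleted line (left) and the control line (right). In the deleted line 23 probes rose and 143 fell by at least 4-fold, against 279 and 217 in the control line.

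For the 143 probes that fell at least 4-fold, the stem cell level ranged from 481 to 19726 units with a median of 1607, and the median level in bodies was 218 units. Array background sets a lower limit to the level from which a fall of that size can be seen. All 143 were detected on both stem cell arrays, 112 were still detected on all 4 body arrays and 12 on none. The 23 probes that rose at least 4-fold had a median of 191 units in stem cells and of 909, at most 2890, units in bodies. Of these, 19 were detected on both stem cell arrays and all 23 on the 4 body arrays.

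ILMN_2708477 had the steepest rise. It read 163 and 254 units on the stem cell arrays and 1632, 2352, 1838 and 989 units on the body arrays. All 4 bodies lay above both stem cell arrays, and replicate 4 was the lowest of them. Lack of overlap between the stages was a condition for naming the steepest rises and falls, so it is no finding about them. The log2 change was 3.00 ± 0.31 (SE, limma adjusted p = 0.00019), a 7.98-fold rise. ILMN_2670625 followed, from 257 and 180 units to 2537, 1121, 1550 and 1862 units. The stages again did not overlap, and here replicate 2 was the lowest body array. Its log2 change was 2.97 ± 0.30 (SE, limma adjusted p = 0.00017).

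ILMN_2693895 had the steepest fall, from a bright level in stem cells. It read 18168 and 21419 units in stem cells and 165, 312, 201 and 237 units in bodies. Every body array was far below both stem cell arrays but still above detection. The log2 change was -6.47 ± 0.71 (SE, limma adjusted p = 0.00028). ILMN_2923445 fell from 5360 and 6840 units to 118, 149, 128 and 129 units. Its bodies lay near array background, with detection on 3 of 4 arrays, so the fitted 46.4-fold fall is limited by background (log2 change -5.54 ± 0.68 SE, limma adjusted p = 0.00051). Background is part of every deposited intensity, and the changes of dim probes are compressed by it.

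**Figure D2:**
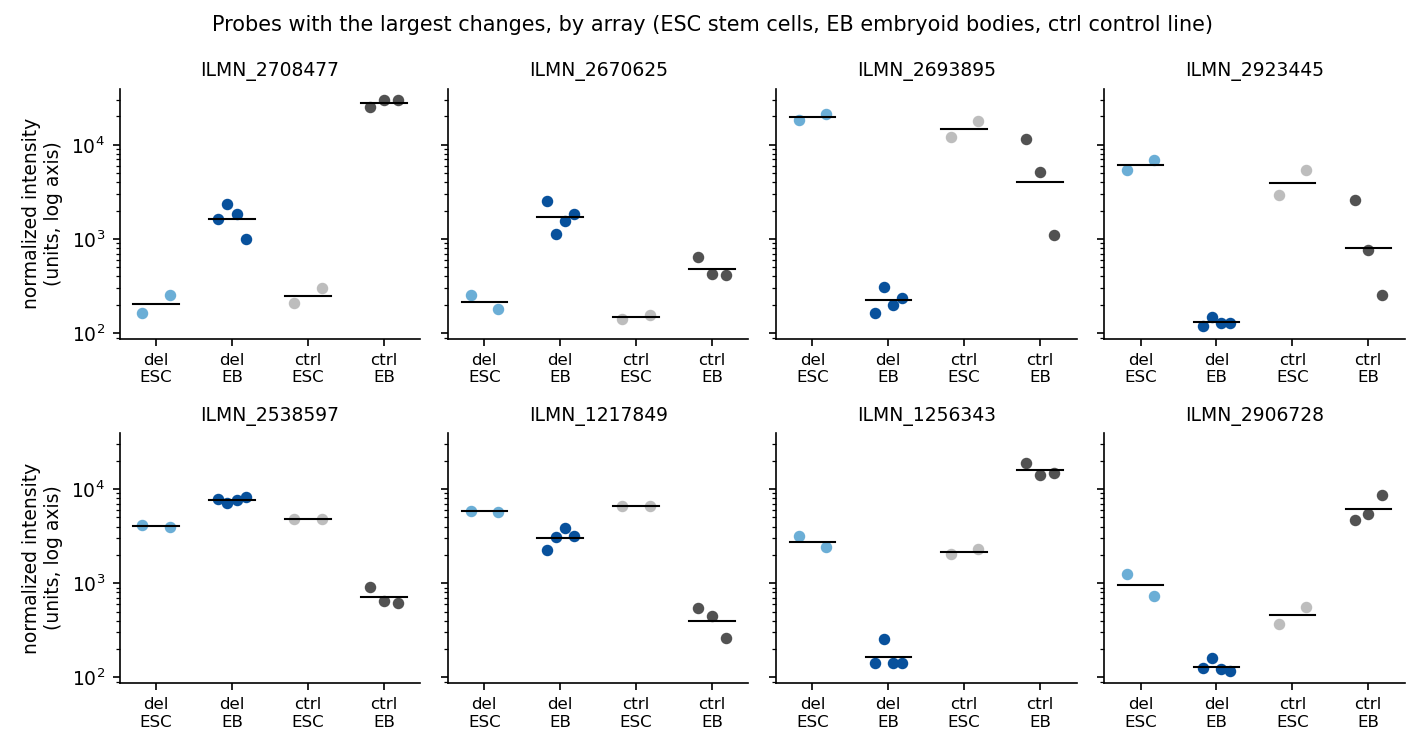
Normalized intensity on a log axis (vertical) of the 8 named probes on every array, grouped by line and stage (horizontal); points are arrays and lines the group means on the log scale. ILMN_2693895 fell from 18168 and 21419 units to between 165 and 312 in the deleted line, while control embryoid bodies ranged from 1102 to 11654 units.

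The size of the response depended on which stem cell array served as the start. Each of the 4 body arrays was set against each of the 2 stem cell arrays without averaging. The probes at least 2-fold apart numbered 1061 to 1491 against stem cell replicate 1. They numbered 1512 to 2371 against replicate 2, and each body array had more such probes against replicate 2 than against replicate 1. Rising probes accounted for most of the gap, at 430 to 678 against replicate 1 and 780 to 1289 against replicate 2. Falling probes numbered 631 to 813 and 732 to 1082. Body replicate 2 had the fewest and replicate 1 the most against either stem cell array. From stem cell replicate 1 to replicate 2, 313 probes were lower by at least 2-fold and 44 were higher. Pairs of body arrays had 20 to 213 probes at that distance.

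**Figure D3:**
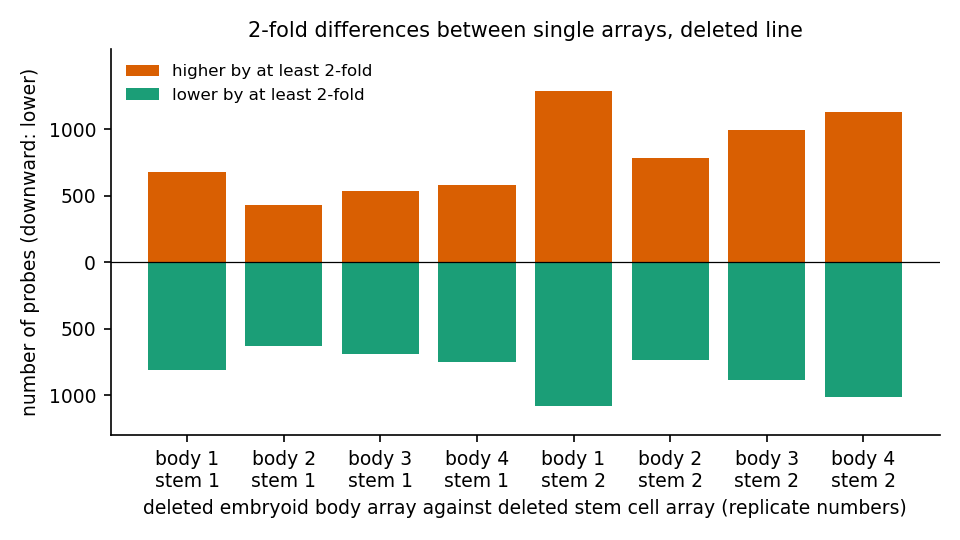
Number of probes at least 2-fold higher (upward bars) or lower (downward bars) on each deleted embryoid body array than on each deleted stem cell array, the pairs on the horizontal axis named by replicate number. Totals ran from 1061 to 1491 against stem cell replicate 1 and from 1512 to 2371 against replicate 2.

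In all 8 array pairs 133 probes (0.572% of those tested) were at least 2-fold higher in bodies and 331 (1.42%) at least 2-fold lower. In at least 1 pair 2029 (8.72%) were higher and 1686 (7.25%) lower, so the balance turned with the condition set. The stages did not overlap for 10253 probes (44.1% of those tested), 5388 (23.2%) upward and 4865 (20.9%) downward. Without deleted stem cell replicate 2 the count past the threshold was 2627 in place of 5189, and without replicate 1 it was 4683. A principal component over the 6 arrays with 71.0% of the variance put the stem cells at -44.4 and -57.8 and the bodies between 14.9 and 32.2. The second, with 11.4%, separated the stem cell arrays from each other, at 27.1 and -21.1, with the bodies between -10.3 and 3.21.

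Changes were found along most of the brightness scale. Probes were divided into 5 groups of equal size by their mean over all 11 arrays. In the dimmest group, below 129 units, 3.24% of probes passed in the deleted line, with 42 higher and 109 lower. The share then went to 13.5%, 27.7% and 35.2% with rising brightness. In the brightest group, from 639 units upward, it was 31.8%, with 792 higher and 690 lower. Calls are harder to reach near background, so the low share among dim probes does not show that dim transcripts changed less.

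Some transcripts crossed the detection limit. A set of 197 probes (0.435% of 45281) had a detection p-value under 0.01 on all 4 body arrays and at least 0.05 on both stem cell arrays. The opposite set held 234 probes (0.517%). The newly detected probes had a median of 159 and at most 401 units in bodies, against a median of 120 units in stem cells. The lost probes had a median of 161 and at most 2639 units in stem cells, against a median of 118 units in bodies. The median log2 change was 0.41 for newly detected and -0.47 for lost probes, so a typical crossing was a small step near array background. These sets were chosen on the arrays of the stage test, which is therefore not given for them. Leaving out an array drops a condition, so the class sizes can then only stay or grow, and their growth says little about that array. They were 612 newly detected probes without stem cell replicate 1, and 318 newly detected and 449 lost probes without replicate 2. Without body replicate 2 there were 308 newly detected probes, and without stem cell replicate 1 there were 379 lost ones.

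On the control arrays, which played no part in choosing them, 66 of the 197 newly detected probes (33.5%) were detected at 0.01 on all 3 control body arrays, against 31.5% of all probes on the array. On no control body array at 0.05 were 37 of them detected (18.8%), against 51.7% of all probes. The same crossing, from no control stem cell array to every control body array, was made by 43 probes, 21.8% of the deleted line's set. Among all 45281 probes 709 made it in the control line, and the 43 were 6.06% of these. Of the 234 lost probes, 22 (9.40%) were detected at 0.01 on all 3 control body arrays, against 31.5% of all probes. At 0.05, 133 of the lost probes (56.8%) were undetected in all control bodies, against 51.7% of all probes. The same loss was seen for 64 of the lost probes, 27.4% of the deleted line's set. Among all 45281 probes 387 had it in the control line, and the 64 were 16.5% of these. In neither set did a probe make the opposite crossing in the control line.

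The stage change of the deleted line was then set beside that of the control line, which was measured on other arrays. In the control line 8789 probes or 37.8% passed, 18.3% higher and 19.4% lower. Of the 2440 probes that rose in the deleted line, 1285 also rose in the control line, which is 52.7% of the former and 30.1% of the latter. Of the 2749 that fell, 1695 also fell, 61.7% and 37.5% of each list. Whether a change differed between the lines was tested by the deleted change minus the control change, which passed for 2693 probes or 11.6%, 5.61% positive and 5.96% negative. This test uses the same deleted arrays as the stage test, so its counts within stage calls describe those calls and are not separate support.

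The difference passed for 11.6% of the changes shared upward and 12.2% of those shared downward, near its share of all probes. Among the 1285 shared rises, 1136 did not pass, 133 passed with a smaller rise in the deleted line and 16 with a larger one. Among the 1695 shared falls the numbers were 1488, 158 and 49. Median shared changes were 0.75 in the deleted and 0.94 in the control line upward, and -0.73 and -0.89 downward, on the log2 scale. A p above the threshold does not show that such probes changed alike.

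Some deleted-line changes had no call in the control line. Of the 1054 deleted-line rises without a control call, 296 had a difference past the threshold, and of the 907 such falls 206 did. The shares over all tested probes were 5.61% positive and 5.96% negative. Taking probes called in the deleted line and not in the control line favours a difference of that sign. Probes called in opposite directions numbered 101 rising and 147 falling in the deleted line, a choice that fixes the outcome of the difference test. These lists were chosen on the deleted arrays, so their deleted-line sizes are biased upward. The number of differences moved with the stem cell arrays. It was 945 when replicate 1 of the control stem cells was left out and 1356 when that of the deleted stem cells was. Under median scaling it was 1707.

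**Figure D4:**
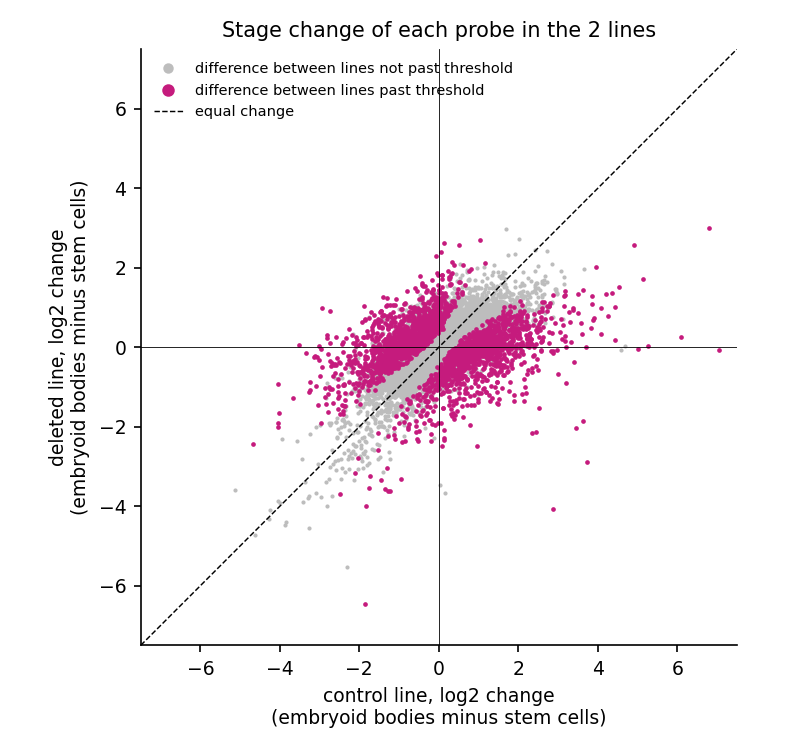
Log2 change from stem cells to embryoid bodies of 23268 probes in the control line (horizontal axis) and the deleted line (vertical axis); coloured points are the 2693 probes whose change differed between the lines at an adjusted p of 0.05. The deleted line's changes reach 2.997 upward and -6.47 downward.

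ILMN_2538597 moved in opposite directions in the lines. In the deleted line it read 4176 and 3974 units in stem cells and 7789, 7086, 7692 and 8137 in bodies, so all bodies were higher. In the control line it read 4758 and 4835 units in stem cells and 918, 642 and 617 in bodies. The log2 change was 0.91 ± 0.14 (SE, limma adjusted p = 0.0019) in the deleted line, and the difference between lines was 3.66 ± 0.21 (SE, limma adjusted p = 3.0e-05).

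ILMN_1217849 fell less in the deleted line. It went from 5894 and 5721 units to 2265, 3121, 3840 and 3168 units there, and from 6561 and 6531 to 542, 450 and 260 units in the control line. Both lines fell without overlap of stages. The difference was 3.11 ± 0.39 (SE, limma adjusted p = 0.0014). The deleted line's own change of -0.93 ± 0.27 (SE, limma adjusted p = 0.033) lost its call in 10 of 20 alternatives, median scaling (-0.74, limma adjusted p = 0.084) and the loss of either deleted stem cell array (limma adjusted p = 0.12 and 0.14) among them. The loss of body replicate 1, 2 or 4 also ended it, at limma adjusted p of 0.069, 0.053 and 0.061, and over the alternatives the adjusted p ran from 0.0065 to 0.14.

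ILMN_1256343 and ILMN_2906728 fell in the deleted line and rose in the control line. ILMN_1256343 read 3139 and 2413 units in deleted stem cells and 144, 255, 141 and 143 units in deleted bodies, where replicate 2 stood apart. In the control line it rose from 2020 and 2335 to 18709, 14248 and 14941 units. Its deleted-line change was -4.06 ± 0.24 (SE, limma adjusted p = 7.6e-06), and the difference was -6.93 ± 0.35. ILMN_2906728 read 1260 and 726 units in deleted stem cells and 125, 162, 124 and 116 units in deleted bodies, near background and detected on 1 of 4. In the control line it rose from 367 and 564 to 4695, 5461 and 8699 units. Its deleted-line change was -2.87 ± 0.29 (SE, limma adjusted p = 0.00018) and the difference -6.61 ± 0.42 (SE, limma adjusted p = 3.6e-05). The sizes of both are limited by background.

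ILMN_2670625 also rose in the control line, from 141 and 157 to 643, 422 and 410 units, and the difference of 1.28 ± 0.44 (SE) did not pass (limma adjusted p = 0.087). It passed without deleted body replicate 2 (1.48, limma adjusted p = 0.036). ILMN_2708477 rose far more in the control line, from 208 and 301 to 25072, 29624 and 29624 units, with a difference of -3.81 ± 0.45 (SE, limma adjusted p = 0.00097). ILMN_2693895 read 11951 and 17914 units in control stem cells and 11654, 5090 and 1102 in control bodies, an uneven group. Its difference was -4.61 ± 1.03 (SE, limma adjusted p = 0.020), which was no longer past the threshold without control stem cell replicate 1 (-4.32, limma adjusted p = 0.094) or deleted stem cell replicate 1 (-4.73, limma adjusted p = 0.062). ILMN_2923445 was similarly uneven in control bodies, at 2562, 773 and 254 units, and its difference of -3.22 ± 0.99 (SE) did not pass (limma adjusted p = 0.065). It passed in 5 of 18 alternatives, among them without control body replicate 1 (-2.37, limma adjusted p = 0.038) or 3 (-4.04, limma adjusted p = 0.0056). Of the 143 falls of at least 4-fold, 122 also fell in the control line, 15 had no call and 6 rose there. Over all tested probes the control line had 19.4% lower and 18.3% higher. The difference passed for 38 of the 143 with a negative and for 2 with a positive sign, and did not pass for 103. Among all probes tested, 5.96% passed with a negative and 5.61% with a positive sign. The 143 were chosen for steep falls in the deleted line, a choice that favours a negative sign.

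The largest changes of one line were smaller, in the median, in the other, whichever line chose them, an outcome that such a choice favours. The 279 probes that rose at least 4-fold in the control line had a median deleted-line change of 0.73 on the log2 scale. In the deleted line 119 of them rose, 17 fell and 143 did not pass. The 217 probes that fell at least 4-fold had a median of -1.19, with 140 falling, 1 rising and 76 not passing. Over all tested probes the deleted line had 10.5% higher and 11.8% lower. At 4-fold in both lines were 8 rising probes (34.8% of the deleted and 2.87% of the control list) and 64 falling ones (44.8% and 29.5%). These sets were chosen for large control changes, so the control sizes, with medians of 2.44 and -2.45, are biased upward. In the reverse choice, the deleted line's 23 rises of at least 4-fold had medians of 2.33 in the deleted and 1.38 in the control line, and its 143 falls had medians of -2.62 and -1.92. Here the deleted sizes are biased upward by the choice.

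On the same 279 probes the 2 deleted stem cell arrays were unlike each other. Measured from the mean of control stem cells, replicate 1 had a median of 0.82 and replicate 2 of 0.22 on the log2 scale, and the control stem cell arrays stood at -0.09 and 0.09. The 4 deleted body arrays had medians of 1.37, 1.25, 1.35 and 1.30. The probes were chosen for low control stem cells and high control bodies, so a place between these groups follows from the choice. Without stem cell replicate 1 the deleted line's rises of at least 4-fold numbered 62 and its falls 137.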

How the data were processed

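GenomeStudio gave the probe intensities, per the labels and design text, and the authors deposited them without normalization between arrays, each beside a detection p-value. Per the submitters' processing notes, limma was used. Background subtraction before export is not stated in those sources. All 22 data columns matched 1 sample title each. Intensities of the 11 arrays were quantile normalized and log2 transformed without an offset, and 23268 of 45281 probes were kept, those detected at 0.05 on 2 or more arrays. One model with 4 group means was fitted with limma 3.58.1 in R 4.3.3, with empirical Bayes moderation and Benjamini-Hochberg adjustment over the kept probes. All 11 arrays entered, so that the small stem cell groups share 1 estimate of spread. The number of arrays limits the precision. Named are the 2 probes with the largest change in each direction without overlap of stages, and likewise the 2 with the largest difference between lines among deleted-line calls. The groups, lists and tests were chosen with earlier results of these data known. The fit was tested on simulated data. Alternatives were median scaling, background correction by neqc (offset 16), no filter or a filter at 0.01 on at least 3 arrays, the deleted line alone, the replicate number as a block, trended robust moderation, each array left out, and, added after seeing the data, array weights. Array measures used exact permutation tests in scipy 1.17.1. Probe positions and sequences were not used here.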

Additional observations from a re-analysis of the deposited data

Results flagged for a closer look

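The change from stem cells to embryoid bodies differed between the deleted and the control line for 2693 probes by limma's test of the difference. Among the named probes this difference, deleted minus control on the log2 scale, was 3.66 for ILMN_2538597, 3.11 for ILMN_1217849, -3.81 for ILMN_2708477, -4.61 for ILMN_2693895, -6.61 for ILMN_2906728 and -6.93 for ILMN_1256343. Of these, ILMN_2538597, ILMN_1217849, ILMN_2906728 and ILMN_1256343 were named for the size of this difference, so their sizes are biased upward. Across the 4 deleted embryoid bodies, 11 measures were screened for a single distant array, which chance alone produces in about 1 of 20. One measure had such an array. It was ILMN_1256343, whose replicate 2 read 255 units against 141 to 144 on the others, a gap of 0.974 of the range.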

How the results depend on the processing

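Of the settings other than leaving out an array, these moved a total, a count by direction or a detection class by over 1.5 times. Median scaling gave 1707 probes with a difference between lines, 815 of them negative, in place of 2693 and 1387. The replicate block, with the replicate number as a term, gave 1801 falling probes in the deleted line in place of 2749, and 867 positive differences in place of 1306. No label says that a number is shared by a culture, and with 2 stem cell arrays the deviations of one mirror the other. Deviations of stem cell replicate 1 correlated with those of body replicates 1 to 4 at r of 0.12, -0.18, -0.02 and 0.12 across probes. Stem cell replicate 2 had the same values with the sign reversed, so its r of 0.18 with body replicate 2 was the highest of any pair. For stem cell replicate 1, body replicates 1 and 4 were level. Whether a shared number marks a shared culture was not tested. Detection classes at 0.05, a looser limit that can only enlarge them, held 459 newly detected and 478 lost probes in place of 197 and 234. Other counts, such as those at a fold limit, also moved, and not all are given here. Background correction with neqc raised the deleted line's changes of at least 2-fold to 1585 higher and 1756 lower.

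Over the analyses that left out 1 array, the deleted line's calls ranged from 2627 to 5495, with 1121 to 2670 higher and 1506 to 2825 lower. The control line's ranged from 5232 to 9003, with 2462 to 4340 higher and 2770 to 4663 lower. Differences between lines ranged from 945 to 3392, with 413 to 1595 positive and 532 to 1797 negative. Newly detected probes ranged from 220 to 612 and lost ones from 262 to 449, counts that cannot shrink when an array is left out. The difference in mean intensity between deleted bodies and stem cells ranged from -36.8 to 28.4 units. The causes were not tested. Where a stem cell group is left with 1 array, that array is assumed to vary like the other groups. None of the named probes reversed direction where its change had passed. Changes that end near array background are limited by it.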
